A study of Rattus norvegicus with 9 samples.

Results

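Ribosomal protein genes encode the protein subunits of the cytosolic ribosome. They were taken from the deposited gene table by name: every row called Rpl or Rps followed by a number, plus Rpsa, Rplp0, Rplp1 and Rplp2, with the Rps6k kinases left out. The rule found 98 of 32623 rows, which carry 88 different symbols, because 8 symbols stand in more than 1 row and fill 18 rows between them. By name 59 rows belong to the large subunit and 39 to the small subunit. One of the 39, Rps19bp1, encodes a protein that binds Rps19 and is not itself a ribosomal protein. Another 16 rows are paralogs or like-genes of a ribosomal protein, and 81 carry a standard symbol. These cover 73 of the 80 standard proteins. Rpl22, Rps14, Rps19 and Rps26 have no row under their own symbol, and Fau and the subunit Rack1 lie outside the naming rule.

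Cells translate every message on the ribosome, in which the small subunit reads the code and the large subunit joins amino acids. Ribosomal protein messages are known for starting with a run of pyrimidines right at the cap, the 5′ terminal oligopyrimidine or TOP motif, through which the mTOR pathway adjusts their translation together. Growing and dividing cells make many ribosomes. Mammalian genomes hold many intronless copies of these genes.

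The study sequenced polyadenylated RNA from spinal cord of female Wistar rats, 8 weeks old and weighing 200 to 230 g, in 9 libraries of 3 groups with 3 libraries each. Sham rats had the lamina over the cord opened and the cord left uninjured, and were untreated. C_Spinal rats had an injured cord and received distilled water by gavage, and T_Spinal rats had an injured cord and received 3 mL of Modified Erxian Decoction (MED), a herbal mixture, once a day by gavage. C_Spinal thus differs from Sham in injury and in gavage, and the parts of these cannot be told apart. Changes described below as with injury are those of C_Spinal against Sham. The labels give neither the time after injury nor the injury method or segment. They do not tie libraries to separate rats, so p-values reflect library-to-library spread, part of which may be technical. Total counts ran from 56995589 to 69751015 per library. Spinal cord markers were present in all 9: the neuronal Snap25 at a mean FPKM of 549.7, 31.5 and 65.2 (Sham, C_Spinal, T_Spinal), the myelin gene Mbp at 15085, 4732 and 5082, and the astrocyte gene Gfap at 1425, 2880.0 and 3142. FPKM is the deposited level, scaled to transcript length and library size. The astrocyte water channel Aqp4 varied within groups, between 72.4 and 414 in Sham and between 74.0 and 383 in T_Spinal, with 285 to 307 in C_Spinal. Positions of rows are given as the table lists them, and its genome build is not stated in the labels.

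The starts of the genes are shown first, because a pyrimidine run at the start is a feature that the naming rule did not use. RefSeq promoters (GRCr8, 250 bases before to 50 after the annotated start) were matched by symbol to 59 tested symbols whose row lies on the chromosome of the RefSeq gene. A run of at least 7 C or T bases on the sense strand, lying within 20 bases of the start, was found in 45 of 59 (76.3%), against 23.7% of all 33469 RefSeq promoters. The longest run there had a median of 10 bases in the ribosomal protein genes, between 3 and 21, and of 5 in all promoters. Printed below are 40 bases before the start and 20 from it, with the longest C or T run near the start in capitals. First come 7 members chosen from those whose values are described in detail. The 3 with the lowest log2 fold changes in C_Spinal against Sham follow, of which Rpl7l1 did not rise.
Rplp0, chr12:46718371-46718430, minus strand: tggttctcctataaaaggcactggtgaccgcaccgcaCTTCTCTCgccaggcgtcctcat
Rplp1, chr8:71290853-71290912, minus strand: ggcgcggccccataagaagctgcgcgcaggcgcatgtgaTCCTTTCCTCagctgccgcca
Rpsa, chr8:128728839-128728898, plus strand: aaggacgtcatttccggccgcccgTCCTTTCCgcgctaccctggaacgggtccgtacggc
Rpl5, chr14:1995206-1995265, minus strand: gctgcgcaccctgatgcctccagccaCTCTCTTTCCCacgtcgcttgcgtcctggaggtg
Rpl27a, chr1:172974533-172974592, plus strand: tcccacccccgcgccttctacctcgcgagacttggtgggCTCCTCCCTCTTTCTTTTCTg
Rpl10, chrX:157205810-157205869, plus strand: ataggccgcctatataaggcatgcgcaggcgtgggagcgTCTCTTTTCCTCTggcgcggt
Rps12, chr1:23500035-23500094, plus strand: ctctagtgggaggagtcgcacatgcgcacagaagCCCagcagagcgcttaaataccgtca
Rpl7l1, chr9:21695678-21695737, plus strand: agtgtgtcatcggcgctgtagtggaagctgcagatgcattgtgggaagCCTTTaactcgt
Rpl22l1, chr2:113683156-113683215, plus strand: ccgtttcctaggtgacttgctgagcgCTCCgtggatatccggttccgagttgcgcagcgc
Rps19bp1, chr7:113693004-113693063, minus strand: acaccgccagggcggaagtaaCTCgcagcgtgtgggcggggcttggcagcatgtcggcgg

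The run of Rpl27a is 20 bases long, that of Rpl10 13 and that of Rpl5 11. Rpl7l1, Rpl22l1 and Rps19bp1 have runs of 5, 4 and 3 bases. Rps12, the member with the largest rise, has a run of 3 at its annotated start, so a short run and a small rise do not go together throughout. Other members described below but not printed also have short runs beside larger rises in C_Spinal. Rps27l, Rpl41 and Rpl11 have runs of 3 (rises of 1.71, 1.42 and 1.30), and Rps6 a run of 6 (1.32). Runs of at least 7 were found in 45 of the 59. Over the full 300-base promoters and both strands, the letters CTTTCC were present in 50.8% of the 59 against 26.4% of all, CTCTTT in 45.8% against 23.5%, and CTTCCG, the core that ETS factors bind, in 55.9% against 16.6%. The YY1 core AAGATGGC was present in 8.47% against 3.17%, and TATAAA in 11.9% against 14.2%. These letter strings can overlap one another and the pyrimidine run, and a match describes the letters only.

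Ribosomal protein messages took a larger part of each injured library. The 98 rows held 1.00%, 0.969% and 0.978% of all counts in the Sham libraries, 2.52%, 2.50% and 2.50% in C_Spinal, and 2.23%, 2.21% and 2.22% in T_Spinal. Groups did not overlap, with means of 0.983% ± 0.0174, 2.51% ± 0.0111 and 2.22% ± 0.00844 (SD, n = 3 each). A share also moves with everything else in the library: the mitochondrially encoded rows took 8.81%, 6.24% and 5.08% of counts and Mbp alone 5.29%, 1.66% and 1.78%. With those rows taken out of the total the ribosomal protein share was 1.14%, 2.72% and 2.38%, in the same order. The large subunit rows held 1.65, 1.62 and 1.62 times the counts of the small subunit rows in Sham, C_Spinal and T_Spinal, and the ranges of the 3 groups overlapped only between C_Spinal and T_Spinal. In bulk tissue, a different number of cells of a type and a different amount of RNA per cell cannot be told apart.

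**Figure D1:**
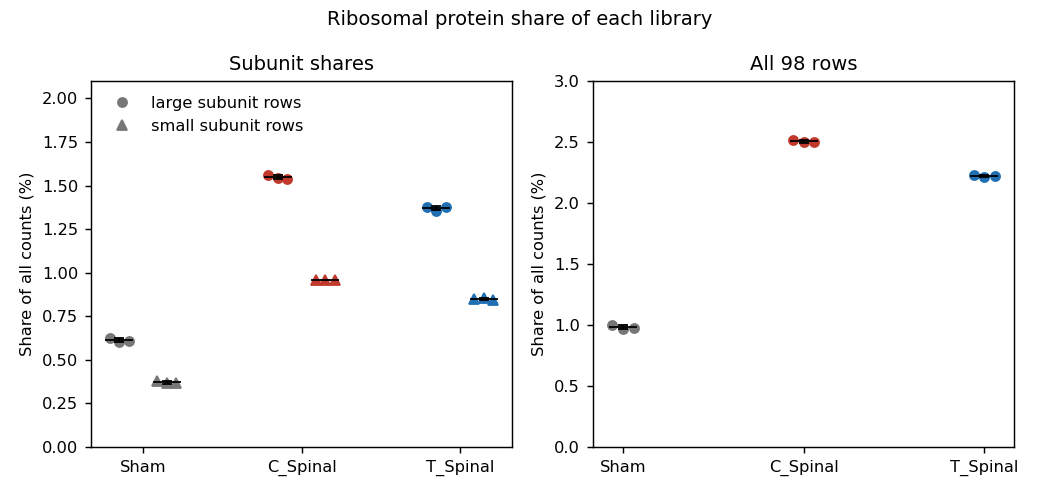
Share of all counts (%, y axis) taken by ribosomal protein rows in each library of Sham, C_Spinal and T_Spinal; left, large subunit rows (circles) and small subunit rows (triangles), right, all 98 rows; points are libraries, bars the mean and SD of 3. Both subunits stand at their highest in C_Spinal, with T_Spinal between C_Spinal and Sham.

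In injured cord with water, nearly every ribosomal protein gene rose. Of the 95 rows that passed the filter of a mean FPKM of at least 1, 93 rose in C_Spinal against Sham and 0 fell, with edgeR's quasi-likelihood test at an adjusted p below 0.05, where 38.1% of all 14791 tested genes rose and 37.4% fell. At an unadjusted p below 0.05 the edgeR test and DESeq2 also found 0 lower, and limma on log2(TPM + 1), in which TPM are the FPKM rescaled to the same sum in every library, found 1, Rpl7l1. The median log2 fold change was 1.25 (middle 50%, 1.03 to 1.49) against 0.02 for all tested genes. The FPKM ranges of the groups did not overlap in 93 of 95 rows, all higher in C_Spinal, which was the case for 45.6% of all tested genes. The 60 rows that carry a standard symbol once and span more genome than their transcript is long all rose, between 0.76 and 2.23. Here and below, fold changes are on the log2 scale of the counts and levels are deposited FPKM.

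By role, the 3 acidic stalk proteins, which recruit elongation factors to the large subunit, rose by 1.51 to 1.64. Rplp0, the base of the stalk, was at 283, 285 and 297 in Sham, 961, 912 and 927 in C_Spinal, and 913, 895 and 889 in T_Spinal. Both injured groups lay far above Sham, and they overlapped each other. Its log2 fold change was 1.57 (SE 0.0306, adjusted p = 2.11e-11) in C_Spinal and 1.48 (SE 0.0305, adjusted p = 4.15e-11) in T_Spinal against Sham. Rplp1, one of the paired tips of the stalk, was at 428, 342 and 364 in Sham, 1214, 1139 and 1167 in C_Spinal, and 943, 878 and 985 in T_Spinal, with no overlap between any of the groups. Rplp2, its partner, had a lower level, at 48.5, 25.5 and 50.4 in Sham, about 141 in each C_Spinal library, and 96.1, 114 and 117 in T_Spinal.

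Rpl5 and Rpl11 carry the 5S RNA into the large subunit and can bind the p53 regulator Mdm2 when assembly fails. Rpl5 was at 205, 196 and 201 in Sham, 471, 473 and 461 in C_Spinal, and 469.7, 471 and 469.7 in T_Spinal. Both injured groups overlapped each other and lay apart from Sham (1.10 in C_Spinal, SE 0.0272, adjusted p = 1.04e-10). Rpl11 was at 33.6, 32.5 and 34.6, then 88.2, 92.8 and 89.4, then 76.0, 72.1 and 78.6, so that the groups all lay apart (1.30 in C_Spinal against Sham, SE 0.0383, adjusted p = 3.70e-10). The 9 tested large subunit proteins around the exit tunnel, through which the new chain leaves, all rose, from 0.98 for Rpl17 to 2.02 for Rpl39.

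In the small subunit 38 of 38 tested rows rose, with Rps19bp1 not counted among them (median 1.30), against 54 of 56 in the large subunit (median 1.20). Of all tested genes 38.1% rose. Rpsa, which also serves as a laminin receptor, was at 352, 352 and 354 in Sham, 779, 743 and 770.3 in C_Spinal, and 758, 744 and 739.7 in T_Spinal. Its rise in C_Spinal was 0.99 (SE 0.0272, adjusted p = 2.14e-10), and the injured groups overlapped. Rps6, the subunit that S6 kinases phosphorylate, was at 148, 126 and 158, then 394, 400.4 and 373, then 351, 349.6 and 376, again with both injured groups above Sham (1.32 in C_Spinal, SE 0.0717, adjusted p = 4.33e-08). Rps12 had the largest rise of all tested rows. It was at 76.5, 80.0 and 54.5 in Sham, 377, 330.4 and 368 in C_Spinal, and 304, 293 and 256 in T_Spinal, with no overlap between groups (2.23 in C_Spinal against Sham, SE 0.135, adjusted p = 1.03e-07).

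**Figure D2:**
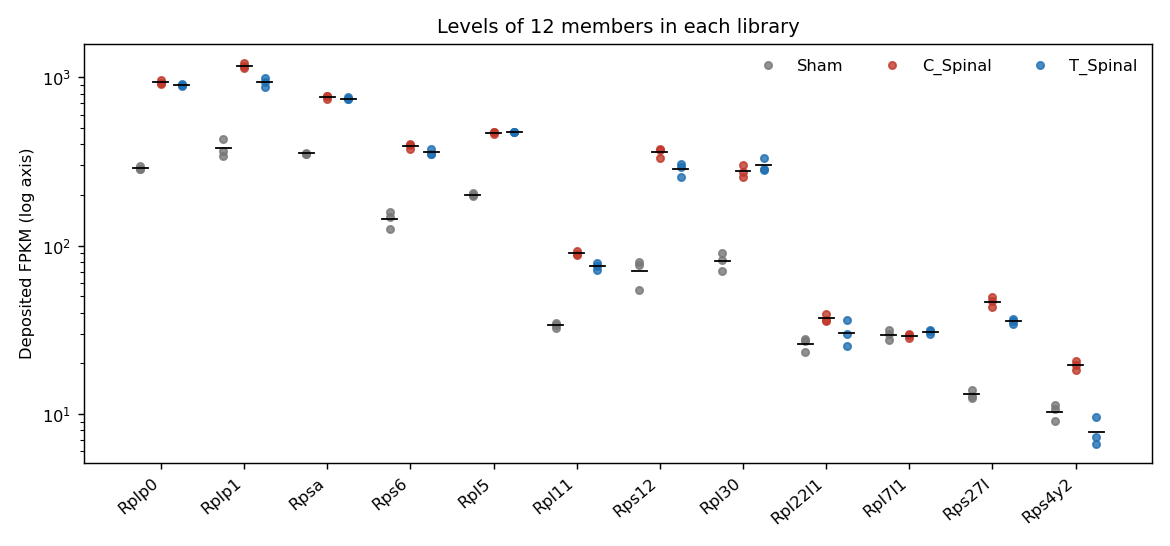
Deposited FPKM (log axis) of 12 members in each library (points, coloured by group) with the group mean (black line). In 9 of the 12 both injured groups lie wholly above Sham; Rpl7l1 overlaps Sham in both, and Rpl22l1 and Rps4y2 overlap it in T_Spinal.

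The exceptions were few. Rpl7l1, a relative of Rpl7, was at 31.3, 27.5 and 29.7 in Sham, 29.5, 28.3 and 29.7 in C_Spinal, and 31.7, 31.2 and 29.7 in T_Spinal. Ranges of Sham and C_Spinal overlapped, and the log2 fold change was -0.14 (SE 0.0662, adjusted p = 0.0788), while Rpl7 itself rose by 1.15 (SE 0.0311, adjusted p = 1.97e-10). Without Sham replicate 2 Rpl7l1 had a log2 fold change of -0.19 at an adjusted p of 0.0341. The other row that did not pass was the copy of Rpl21 on chromosome 3 (0.40, SE 0.949, adjusted p = 0.716), described below. Rps19bp1 rose by 0.38 (SE 0.0808, adjusted p = 0.00159). Rpl22l1, the paralog of Rpl22, rose by 0.38 (SE 0.124, adjusted p = 0.0186), a call that ended without Sham replicate 3 (adjusted p = 0.0675) or C_Spinal replicate 2 (adjusted p = 0.0604).

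**Figure D3:**
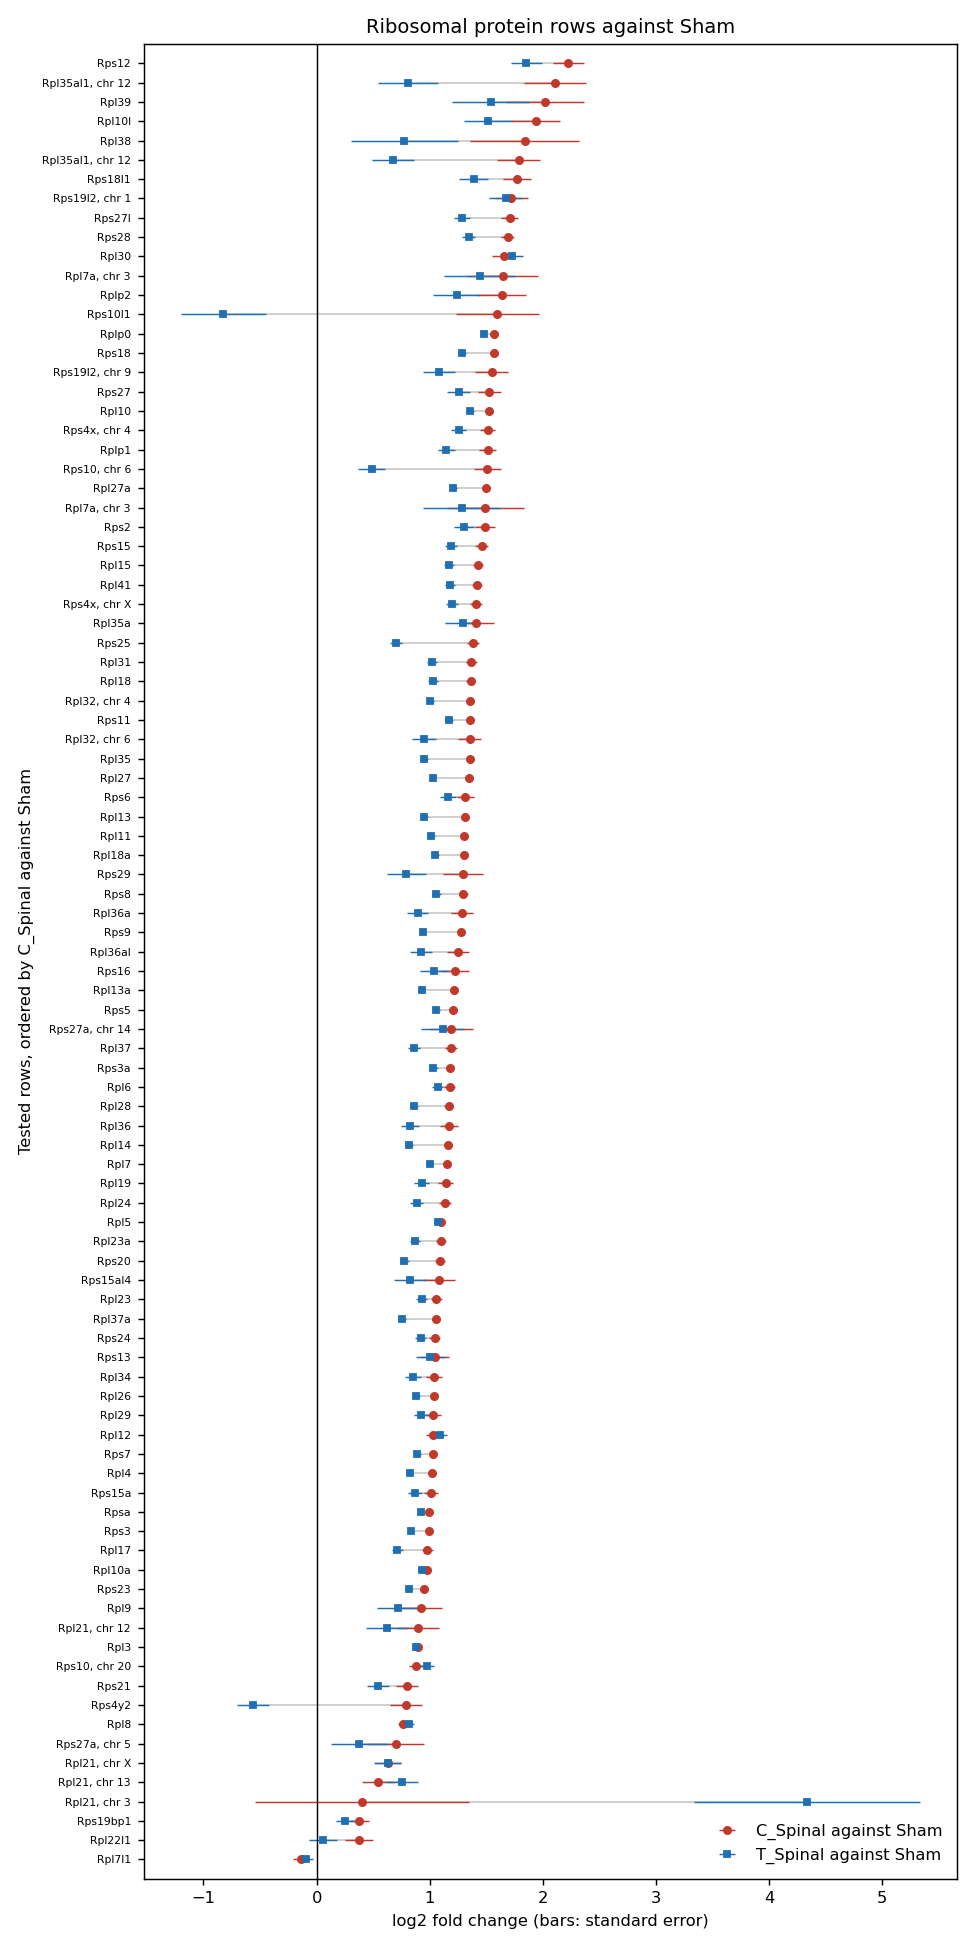
Log2 fold change against Sham (x axis) of 94 of the 95 tested rows, ordered by their value in C_Spinal; red circles are C_Spinal against Sham, blue squares T_Spinal against Sham, bars the standard error. Nearly all points lie right of 0 and most squares lie left of their circle; the copy of Rpl21 on chromosome 3 and Rps10l1 have the widest gaps.

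Among the rows that the naming rule found, the same pair had the highest levels in every group, and the order below them differed between groups. The S29 row LOC108352650, left out by the rule and described below, had a higher mean than Rplp1 in Sham and T_Spinal. Compared per length, Rpl41, the smallest ribosomal protein, had the highest mean FPKM in each group, at 479 ± 10.4 in Sham, 1395 ± 68.3 in C_Spinal and 1210.1 ± 43.5 in T_Spinal (SD, n = 3). Rplp1 was next in all groups, at 378 ± 44.8, 1173 ± 38.2 and 936 ± 53.9. In Sham Rpsa followed at 352 ± 1.17, within the spread of Rplp1, whereas in both injured groups Rplp0 followed them, at 933 ± 25.3 and 899 ± 12.5; in T_Spinal its range overlapped that of Rplp1. Such levels depend on the transcript length behind the FPKM. The length implied by counts and FPKM was 461 bases for Rpl41 and 516 for Rplp1, but 5354 for Rpl7, 3997 for Rpl11 and 3645 for Rpl3, longer than their messages are known to be, so the FPKM of these genes understates their level beside the others and only their changes between groups are used.

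With the decoction most ribosomal protein genes were lower than with water, by small amounts. In T_Spinal against C_Spinal 56 of 95 tested rows fell, 1 rose and 38 passed in neither direction, with 88 of the 95 log2 fold changes below 0, where 17.9% of all tested genes fell and 20.7% rose. The median log2 fold change was -0.25 (middle 50%, -0.34 to -0.14), against -0.003 for all tested genes. Groups lay apart with T_Spinal lower in 58 rows and with T_Spinal higher in 4, against 21.7% and 30.3% of all tested genes. When the values were rescaled to TPM and tested with limma, 34 rows fell and 7 rose, and the median was -0.13. On that scale the median of all tested genes moved to 0.11, and relative to it the members had -0.24, beside -0.25 on the main scale. A change of scale moves all genes by nearly the same amount. This difference could therefore hardly change and is no check of the fall.

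Of the 60 standard genes 41 fell and 0 rose by the edgeR test, with log2 fold changes from -0.68 to 0.07 and the middle 50% between -0.31 and -0.15. Of all tested genes 17.9% fell and 20.7% rose by the edgeR test at the same threshold. By adjusted p, DESeq2 called 41 lower and 0 higher, and limma on log2(TPM + 1) called 25 lower and 4 higher. The share over all tested genes is not given for DESeq2, for limma or for an unadjusted p. At an unadjusted p below 0.05 the counts were 49 lower and 0 higher with edgeR, 48 lower and 0 higher with DESeq2, and 29 lower and 5 higher with limma on log2(TPM + 1). The largest fall in this set was that of Rps25, a small subunit protein needed for initiation at some internal entry sites. Rps25 was at 130.4, 144 and 139.6 in Sham, 399.6, 377 and 399 in C_Spinal, and 259.8, 234 and 259.7 in T_Spinal. All 3 groups lay apart, and the fall was -0.68 (SE 0.0518, adjusted p = 6.72e-06), a 1.60-fold lower level. Rpl35, at the exit tunnel, fell by 0.41 (SE 0.0342, adjusted p = 1.26e-05), Rpl13 by 0.36 (SE 0.0324, adjusted p = 1.92e-05) and Rplp1 by 0.36 (SE 0.0761, adjusted p = 0.0041).

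Other standard genes had edgeR values near 0 in this comparison. Rpl5 had -0.03 (SE 0.0269, adjusted p = 0.397) and Rpl3, which lines the catalytic centre, -0.02 (SE 0.0256, adjusted p = 0.682); with limma on log2(TPM + 1) the sign turned and both were called higher in T_Spinal (0.091, adjusted p = 0.0126, and 0.11, adjusted p = 0.00723). Rpl8 was at 229.8, 225 and 222 in C_Spinal and 249.5, 230.3 and 244 in T_Spinal, apart in the upward direction, at 0.06 (SE 0.0393, adjusted p = 0.256). Rpl30 had 0.07 (SE 0.0969, adjusted p = 0.591) and Rpl12 0.06 (SE 0.0604, adjusted p = 0.442). Rpl12 was called higher without C_Spinal replicate 3 (0.15, adjusted p = 0.0248) and with limma on log2(TPM + 1) (0.19, adjusted p = 0.0377). The fall of Rplp0 passed only narrowly (-0.09, SE 0.0299, adjusted p = 0.0367), and its call ended with another scaling, with limma and without any of several libraries, among them Sham replicate 2 (adjusted p = 0.0510), C_Spinal replicates 1 and 3 (0.129 and 0.0701) and T_Spinal replicates 2 and 3 (0.0850 and 0.0946). The fall of Rps12 (-0.37, SE 0.128, adjusted p = 0.0448) ended likewise, without C_Spinal replicate 1 or 3 (adjusted p = 0.119 and 0.106) or any T_Spinal library (0.0573, 0.0806 and 0.142).

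The rows also differ in the kind of locus they stand for. In 76 rows the deposited span is longer than the implied transcript, as for a gene with introns, and in 21 it is not longer, with 1 row too low to say. Of 17 rows that lie on another chromosome than the RefSeq gene of their symbol, 15 are of the second kind, among them the only rows for Rpl9, Rpl35a, Rpl37, Rpl38, Rpl39, Rps13 and Rps29. In such rows the count may hold fragments that the authors' mapping placed on a near-identical copy, and how reads were split between copies was not tested. Both kinds rose in C_Spinal against Sham, where 38.1% of all tested genes rose. The first kind had 74 rises in 75 tested rows (median 1.22) and the second 19 in 20 (median 1.27). In T_Spinal against C_Spinal 17.9% of all tested genes fell and 20.7% rose. There 47 of 75 fell and 0 rose in the first kind (median -0.24, range -1.30 to 0.10). In the second 9 of 20 fell and 1 rose (median -0.33, range -2.42 to 3.94). The single rise among all members was thus in a row of the second kind.

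**Figure D4:**
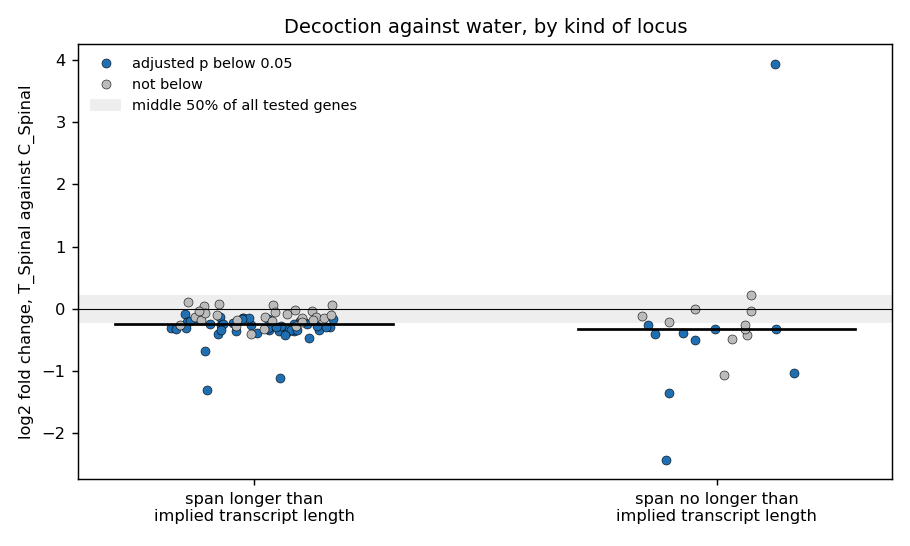
Log2 fold change of T_Spinal against C_Spinal (y axis) for the tested rows whose span is longer than the implied transcript length (left, 75) and the others (right, 20); blue points passed an adjusted p of 0.05, grey did not, black lines are medians and the shaded band the middle 50% of all tested genes. The right group is the more spread out, from -2.42 to 3.94.

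That row was 1 of 4 rows of Rpl21, a large subunit protein. The copy at 91870208 to 91870690 on chromosome 3 held 51, 68 and 16 counts in Sham, 33, 88 and 58 in C_Spinal, and 1851, 995 and 70 in T_Spinal. Both high T_Spinal libraries carried the difference, and replicate 3 lay within the range of C_Spinal. The log2 fold change was 3.94 (SE 0.977, adjusted p = 0.0101), and it missed the threshold with limma on log2(FPKM + 0.1) (3.05, adjusted p = 0.0537). The row on chromosome 12, where RefSeq has the gene, held 4059, 5150 and 5054, then 8043, 9798 and 9932, then 6223, 11326 and 7857 counts, and T_Spinal overlapped C_Spinal widely (-0.28, adjusted p = 0.265). Without T_Spinal replicate 2, the highest of its group, the row was called lower (-0.51, adjusted p = 0.0321). Summed over the 4 rows, Rpl21 rose by 0.78 in C_Spinal against Sham (SE 0.0965, adjusted p = 3.00e-05) and had -0.04 in T_Spinal against C_Spinal (SE 0.0957, adjusted p = 0.783).

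Rps10, at the entry of the message channel, stands in 2 rows with different values with the decoction. The row on chromosome 20, where RefSeq has the gene, held 3511, 3194 and 3022 counts in Sham, 6003, 5608 and 6909 in C_Spinal, and 6699, 7950 and 7232 in T_Spinal. The copy on chromosome 6 held 825, 1005 and 748, then 2674, 2354 and 2518, then 1397, 1191 and 1499, so that each T_Spinal library lay below each C_Spinal library, whereas in the row on chromosome 20 the FPKM of T_Spinal (217 to 237) lay above those of C_Spinal (194 to 212). Its log2 fold change was -1.02 (SE 0.120, adjusted p = 0.000119), beside 0.10 (SE 0.0597, adjusted p = 0.206) for the row on chromosome 20, which limma on log2(TPM + 1) called higher (0.22, adjusted p = 0.0150), and their sum had -0.14 (SE 0.0462, adjusted p = 0.0323). The difference between the rows was not tested.

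Other duplicated symbols are given mainly by their sums. Rpl7a has 2 rows on chromosome 3 with the same span of 2424 bases, and the library with the highest count differed between them: the row at 5459160 held 4133, 4077 and 10145 in C_Spinal where the row at 4867233 held 4422, 9079 and 3824. Summed, Rpl7a rose by 1.57 in C_Spinal against Sham (SE 0.213, adjusted p = 6.39e-05). Rps27a, a fusion of ubiquitin with a small subunit protein, rose by 0.94 over its 2 rows (SE 0.0331, adjusted p = 1.32e-09), although its copy on chromosome 5 alone, at 208 FPKM in C_Spinal replicate 3 beside 402 and 406, rose by 0.70 at an adjusted p of 0.0246, a call that ended without Sham replicate 1, 2 or 3 or C_Spinal replicate 1 or 2 (adjusted p of 0.0553 to 0.0899). The sums of Rpl32, Rps4x and Rps19l2 rose by 1.36, 1.43 and 1.64. In T_Spinal against C_Spinal these 3 sums fell by 0.36, 0.22 and 0.24, and that of Rps27a by 0.19, with adjusted p from 1.09e-05 for Rpl32 to 0.00572 for Rps4x.

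Of the paralogs and like-genes, 12 of 13 tested rows rose in C_Spinal against Sham (median 1.60), where 38.1% of all tested genes rose. In T_Spinal against C_Spinal 8 of 13 fell (median -0.42), where 17.9% of all tested genes fell. Rps27l, a paralog of Rps27 known as a p53 target, was at 12.9, 12.4 and 14.0 in Sham, 47.0, 49.2 and 43.1 in C_Spinal, and 34.2, 36.6 and 35.9 in T_Spinal. Its 3 groups lay apart, with a rise of 1.71 (SE 0.0737, adjusted p = 6.89e-09) and then a fall of 0.42 (SE 0.0712, adjusted p = 0.0012) from C_Spinal to T_Spinal. Rps27 itself, at a mean FPKM of 219.9 in Sham beside 13.1 for Rps27l, rose by 1.53 and had -0.27 (SE 0.0993, adjusted p = 0.0538) in the second comparison, which passed without Sham replicate 1 (adjusted p = 0.0362) or 3 (adjusted p = 0.000197). Rpl10, which helps to form the joint between the subunits, was at 224, 214 and 207 in Sham, 653, 694 and 675 in C_Spinal, and 605, 620.1 and 622 in T_Spinal, with all groups apart. Rpl10l, the intronless copy of Rpl10 that germ cells use, rose by 1.94 from a low level, between 1.73 and 2.87 FPKM in Sham. Rpl36al and Rpl36a rose by 1.25 and 1.29.

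The steepest falls from C_Spinal to T_Spinal were those of like-genes. Rps4y2, which lies on chromosome 4 in the table, held 724, 616 and 621 counts in Sham, 1185, 1063 and 1277 in C_Spinal, and 573, 446 and 487 in T_Spinal, high in C_Spinal alone. It rose by 0.79 (SE 0.142, adjusted p = 0.000491) with injury, fell by 1.35 (SE 0.144, adjusted p = 6.07e-05) from C_Spinal to T_Spinal, and was the 1 member that lay below Sham in T_Spinal by the edgeR test (-0.56, SE 0.143, adjusted p = 0.0051). Rps10l1 held 78, 38 and 41 counts, then 162, 121 and 208, then 30, 49 and 21 (-2.42 in T_Spinal against C_Spinal, SE 0.380, adjusted p = 0.000768). The 2 rows of Rpl35al1 on chromosome 12, at 7424258 to 7424658 and 7186473 to 7186873, fell by 1.30 and 1.11. Rpl38, whose only row is a copy of 213 bases on chromosome 8, varied widely, at 826, 353 and 1207 counts in Sham, 3357, 2682 and 3104 in C_Spinal, and 1509, 2473 and 850 in T_Spinal (-1.06 in T_Spinal against C_Spinal, SE 0.467, adjusted p = 0.10, and 0.0402 without Sham replicate 2).

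The remaining 3 members stayed below the filter and were not tested. Rpl3l, the form that replaces Rpl3 in striated muscle, held 0, 19 and 15 counts in Sham, 0 in each C_Spinal library and 8, 0 and 0 in T_Spinal. Rpl39l, a form of germ cells, held 8, 0 and 4, then 34, 30 and 17, then 0, 0 and 12. Rpl30l1 held at most 21 counts in a library.

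Against Sham, cord treated with the decoction still had high ribosomal protein levels. In T_Spinal against Sham 89 of 95 rows rose and 1 fell, where 35.0% of all tested genes rose and 36.6% fell (71.5% in either direction), and the median was 0.95 (middle 50%, 0.82 to 1.17) against -0.02. In 90 rows the FPKM of T_Spinal lay wholly above Sham, against 45.0% of all tested genes, and in 0 rows wholly below, against 30.7%. All 60 standard genes of the first kind rose, from 0.54 for Rps21 to 1.86 for Rps12. Rpl22l1 was at 27.3, 27.9 and 23.3 in Sham and 29.7, 25.4 and 36.0 in T_Spinal, overlapping, at 0.05 (SE 0.124, adjusted p = 0.715). Each of the 3 comparisons shares 1 group of libraries with each of the others, so their values are not independent of one another.

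Over the 9 libraries the members followed one another closely. The log2(FPKM + 1) of 74 of 95 tested rows had a Pearson correlation of at least 0.95 with the mean of the members, which includes the row itself. Among the closest were Rpl27a (0.9998), Rps18 (0.9989), Rpl27 (0.9988) and Rpl18 (0.9987). The level of Rpl27a, which has the longest run among the printed starts, was at 138, 128 and 133 in Sham, 411, 414 and 401 in C_Spinal, and 349, 338 and 344 in T_Spinal, with all groups apart. The lowest correlations were those of Rpl7l1 (0.125), the copy of Rpl21 on chromosome 3 (0.361), Rps4y2 (0.361) and Rps10l1 (0.428). The points fall into 3 groups of libraries, so these correlations mostly describe the difference between the groups. Across the 95 rows, which share libraries, correlations with the fold change are given as descriptions. For the implied length, Pearson's r was -0.17 and Spearman's rho -0.20 in C_Spinal against Sham, and 0.09 and 0.32 in T_Spinal against C_Spinal. For the mean level they were 0.03 and -0.01, then 0.12 and 0.22.

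Ribosomal proteins that the naming rule left out mostly rose too. Of 113 further rows that the table describes as ribosomal proteins, mostly under LOC names, 77 were tested. In C_Spinal against Sham 63 rose and 1 fell (median 1.14), where 38.1% of all tested genes rose and 37.4% fell. In T_Spinal against C_Spinal 1 rose and 15 fell (median -0.20), where 17.9% of all tested genes fell. As a share, the 15 of 77 is near that background. A row described as S29, LOC108352650, at a mean FPKM of 472 in Sham, 1086 in C_Spinal and 1055 in T_Spinal, was higher than the copy named Rps29, at 8.60, 23.0 and 16.7. The S14-like LOC100911847 rose by 1.14 and fell by 0.21 in these comparisons, and the L22-like LOC100360057 rose by 1.52 and fell by 0.34. Rack1, a scaffold on the small subunit, was at 82.1, 79.8 and 86.1 in Sham, 198, 196 and 199 in C_Spinal, and 201, 194 and 194 in T_Spinal in its row on chromosome 10, a rise of 1.14 (SE 0.0323, adjusted p = 2.90e-10) and then -0.05 (adjusted p = 0.296). Fau, a fusion with a ubiquitin-like protein, listed on chromosome 6, spread from 25.8 to 195 within C_Spinal. It had -0.27 in C_Spinal against Sham (SE 0.641, adjusted p = 0.722). In T_Spinal against C_Spinal Fau had 1.44, opposite in sign to most members, and did not pass there either.

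Other translation genes had smaller medians than the ribosomal proteins. Of 21 tested rows whose messages are known to carry TOP motifs, 17 rose and 0 fell in C_Spinal against Sham (median 0.59), and 5 rose and 6 fell in T_Spinal against C_Spinal (median -0.01); Fau and Rack1 are counted here too. Tpt1, a growth-related TOP message, rose by 1.73 (SE 0.0411, adjusted p = 7.91e-11) and fell by 0.32 (SE 0.0400, adjusted p = 0.000169) with the decoction. Pabpc1, which binds poly(A) tails, rose by 1.51 and by a further 0.11 (SE 0.0251, adjusted p = 0.00601), and Eef1a1, which brings transfer RNA to the ribosome, by 0.94 and a further 0.12 (SE 0.0277, adjusted p = 0.00833). Eef2, the translocase, rose by 0.15 and 0.20. Of 27 initiation and release factors 10 rose and 7 fell in C_Spinal against Sham (median 0.04), and 2 rose and 2 fell with the decoction. Of all tested genes 38.1% rose and 37.4% fell in C_Spinal against Sham, and 20.7% rose and 17.9% fell in T_Spinal against C_Spinal.

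Ribosome assembly genes, 61 of them tested, had 27 rises and 11 falls in C_Spinal against Sham (median 0.19), and 1 rise and 6 falls in T_Spinal against C_Spinal (median -0.04). Dkc1, which modifies ribosomal RNA, fell by 0.52 (SE 0.0949, adjusted p = 0.00199) with the decoction, and the assembly factor Nol6 fell by 0.78 (SE 0.150, adjusted p = 0.000798) with injury. The mTOR list, 16 tested genes, had 6 rises and 8 falls with injury and 6 rises and 3 falls with the decoction. Mtor, the kinase, was at 11.4, 11.9 and 12.8 in Sham, 8.17, 8.14 and 7.52 in C_Spinal, and 9.92, 10.0 and 9.95 in T_Spinal, and it fell by 0.72 (SE 0.0468, adjusted p = 1.82e-07) with injury. Its partner Rptor fell by 0.74, its inhibitor Tsc1 by 0.80, and Larp1, which binds TOP motifs, by 0.47. Eif4ebp1, a repressor of cap binding, rose by 2.65 (SE 0.160, adjusted p = 9.90e-08) and Myc, a transcription factor that drives ribosome production, by 2.62 (SE 0.111, adjusted p = 5.87e-09). Of 74 mitochondrial ribosome genes 20 rose and 21 fell in C_Spinal against Sham (median 0.03). Of 38 proteasome genes 16 rose and 15 fell there (median -0.04), so neither list had a shift like that of the members. With the decoction 1 of the 74 rose and 12 fell (median -0.11), and 3 of the 38 rose and 13 fell (median -0.09). In that comparison 17.9% of all tested genes fell and 20.7% rose. In C_Spinal against Sham 37.4% fell and 38.1% rose.

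**Figure D5:**
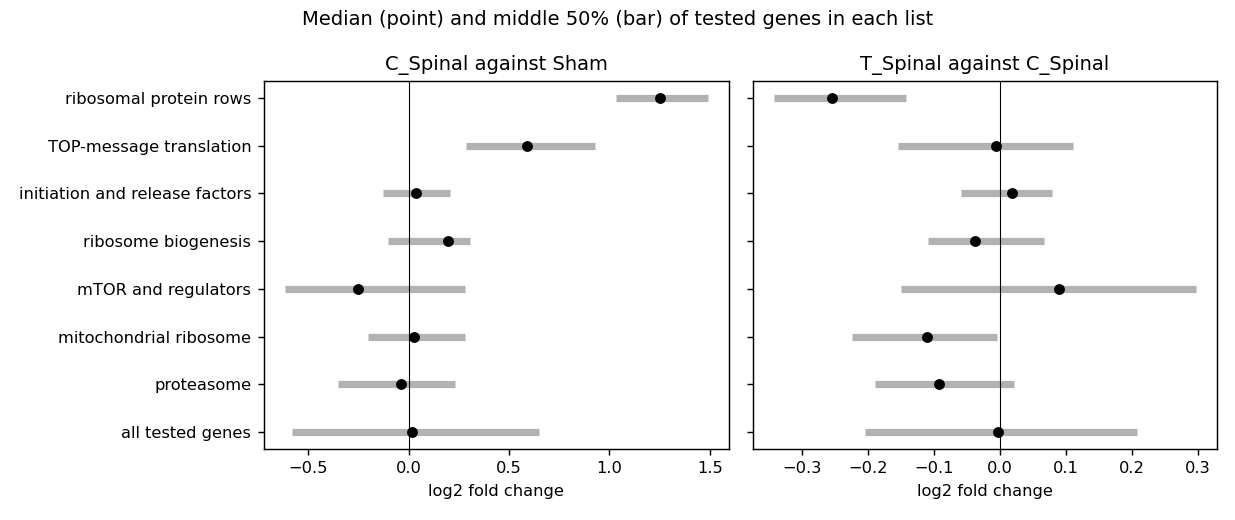
Median (points) and middle 50% (bars) of the log2 fold change (x axis) of tested genes in 6 translation and protein turnover lists, the ribosomal protein rows and all tested genes; left, C_Spinal against Sham, right, T_Spinal against C_Spinal. The ribosomal protein rows lie at 1.25 on the left and -0.25 on the right, the lists between -0.26 and 0.59 on the left and between -0.11 and 0.09 on the right.

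Markers of cell types moved between the groups as well. All 15 tested phagocyte markers rose in C_Spinal against Sham (median 4.11), with a summed FPKM of 650.3 to 674 in Sham, 10831 to 10939 in C_Spinal and 12047 to 12238 in T_Spinal. All 10 tested markers of dividing cells rose (median 1.91; summed FPKM 49.4 to 51.7, 123 to 131 and 122 to 127), and so did all 8 tested fibroblast and matrix markers (median 3.33; 106 to 109.3, 1407 to 1435 and 688 to 701). Neuronal markers fell, 14 of 14 (median -3.63; 2518 to 2591, 277 to 282 and 391 to 398), as did myelin markers, 10 of 10 (median -1.57). Of 9 tested markers of homeostatic microglia 5 rose and 3 fell there (median 0.36). In T_Spinal against C_Spinal 8 of 15 phagocyte markers rose and 3 fell. All 8 fibroblast markers and 3 of 3 tested neutrophil markers fell, and all 9 homeostatic microglial and all 14 neuronal markers rose. Of 10 dividing-cell markers 1 rose and 1 fell. Of all tested genes 38.1% rose and 37.4% fell in C_Spinal against Sham, and 20.7% rose and 17.9% fell in T_Spinal against C_Spinal. Of the 8 neutrophil markers in the list Elane, Ltf, Mmp9 and S100a8 had no counts in Sham, Elane none in C_Spinal, and Elane and Ltf none in T_Spinal. The part of these markers in the ribosomal protein levels was not tested.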

How the data were processed

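Poly(A) RNA from spinal cord was made into stranded paired-end libraries, per the labels' protocols. The authors deposited 1 table with a count and an FPKM per gene for each of 9 libraries. HISAT and StringTie are named in the submitters' processing notes, without versions; which build and annotation they used is not given in the sources used here. Members (98 rows), the gene lists and the tests were chosen with earlier results of these data known.

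Testing was limited to the 14791 of 32623 genes whose FPKM averaged 1 or more over all libraries, which held 99.7% of counts. The deposited counts of all 9 libraries (56995589 to 69751015 each) were fitted with edgeR 4.0.16 (TMM scaling, quasi-likelihood test, Benjamini-Hochberg adjustment over all tested genes, called below 0.05), with 3 comparisons of 3 against 3. Standard errors were taken from the fold change and its F value. The scripts were tested on simulated data. The alternatives used DESeq2 1.42.0, limma 3.58.1 on log2(FPKM + 1), log2(FPKM + 0.1) and log2(TPM + 1), other scalings, no filter, each library left out, a replicate block and 1 row per symbol. R 4.3.3, Python 3.11.15, pandas 2.3.3 and matplotlib 3.10.9 were used.

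The length implied by a row is its count divided by its FPKM and the library total, in rows of at least 20 counts. Genes were named by a rule: Rpsa, the stalk proteins, Rpl5, Rpl11, Rps6, Rps27a, paralogs with their parents, symbols in more than 1 row, the members with the 5 highest and 5 lowest fold changes in each comparison, Fau, Rack1, the members most alike in pattern, and the extremes of the other lists. All others named, such as Rps25, Rpl35, Rpl41, Mtor and the LOC rows, were chosen after their values were seen. Some items that the rule names are not reported here.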

Additional observations from a re-analysis of the deposited data

How the results depend on the processing

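In C_Spinal against Sham the number of ribosomal protein rows that fell was 1 with limma on log2(TPM + 1), and the median was 1.37 with total-count scaling, 1.32 with limma on log2(FPKM + 1), 1.38 on log2(FPKM + 0.1) and 1.16 on log2(TPM + 1). In T_Spinal against C_Spinal the number that rose was 0 with limma on log2(FPKM + 0.1), 7 on log2(TPM + 1), 2 with only the 2 groups fitted, and 0 with 1 row per symbol, with standard symbols of 1 row, or with rows whose span is longer than the implied length, the last chosen after seeing the data. On log2(TPM + 1) 34 fell there, with a median of -0.13, and Rplp0, Rpl3 and Rpl5 turned to 0.032, 0.11 and 0.091. In T_Spinal against Sham 0 fell with standard symbols of 1 row or with the longer spans, and the median was 1.10 with total-count scaling and with limma on FPKM at either pseudocount. Relative to the median of all tested genes, members lay at 1.21 to 1.24, -0.25 to -0.24 and 0.96 to 0.98 in the 3 comparisons under the scalings and tools tried. Another scaling moves members and all other genes nearly alike, so the narrow ranges across scalings are no independent check.

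The share of counts was 1.14%, 2.72% and 2.38% without mitochondrial rows and Mbp in Sham, C_Spinal and T_Spinal, and 2.59%, 5.79% and 5.38% of summed FPKM. Leaving out each replicate in turn gave 91 to 93 rises, 0 to 1 falls and medians of 1.22 to 1.26 in C_Spinal against Sham, 1 to 2 rises, 51 to 61 falls and -0.27 to -0.24 in T_Spinal against C_Spinal, and 87 to 89 rises, 1 to 2 falls and 0.94 to 0.98 in T_Spinal against Sham. The shares then lay at 0.974% to 0.991%, 2.50% to 2.51% and 2.22% to 2.23%.

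With the replicate block there were 93 rises and 0 falls (median 1.26), 1 rise and 53 falls (-0.25), and 89 rises and 1 fall (0.95) in the same order of comparisons. Deviations of same-numbered libraries from their group means correlated between -0.0655 and 0.0555, and not every library correlated best with its own number. Deviations from a mean of 3 libraries constrain one another. These values therefore say little about whether same-numbered libraries share more than a number.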
